A study of Mus musculus with 60 samples.

Results

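The fat lineage genes examined here were 10 genes of adipocyte determination, lipid storage and fat hormones: Pparg, Cebpa, Cebpb, Adipoq, Lpl, Plin1, Cidec, Lep, Zfp423 and Ebf2. They were taken as a named list out of 21911 protein-coding genes, each with its gene body and 50 kb on each side in mm10. The samples were CUT&RUN libraries, in which an antibody directs a nuclease to release the DNA bound by its target, from the C3H 10T1/2 line, mouse progenitor cells of mesenchyme that can be driven towards fat, bone, cartilage or muscle. The series held 60 samples, made of 5 genotypes, each with an IgG control and antibodies to the HA tag, to H3K4me3 and to H3K27me3, in 3 labelled replicates. All genotypes carried a lentiviral transgene under the EF1 promoter, encoding human histone H3 with C-terminal HA and FLAG tags and selected with puromycin, while the endogenous H3 genes remained. The H3WT transgene was unmutated, and in H3R2C, H3R8C, H3R17C and H3R26C the arginine at position 2, 8, 17 or 26 was replaced by cysteine.

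In fat cell differentiation, C/EBPβ, encoded by Cebpb, acts early and helps to switch on Pparg and Cebpa, the central pair of adipogenic transcription factors, which in turn activate the genes of lipid storage and fat hormones. Zfp423 and Ebf2 mark committed preadipocytes. H3K27me3 is laid down by Polycomb repressive complex 2 (PRC2) and covers silent developmental genes, often at promoters rich in CG dinucleotides, so the mark is read here as covered or not covered by a called peak.

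Replicates 1 and 2 of each genotype had identical peak lists for both marks (replicates 2 and 3 for H3R17C with the H3K27me3 antibody) and were counted as 1 library. The list of H3R17C replicate 1 carried the name of another mark and was left out. This left 9 H3K27me3 libraries, 2 per genotype and 1 for H3R17C, and 10 HA libraries. The H3K27me3 libraries held 20077 to 24598 peaks covering 64.2 to 130.4 Mb, and H3R26C replicate 3 had the smallest covered length and the lowest signal threshold. As a check of the mark, 29 of 39 Hox genes had a peak within 1 kb of the start site in both H3WT libraries, next to 8.86% of all genes. The counts were 0 of 6 housekeeping genes and 0 of 8 mesenchymal progenitor markers, lists too short to be told from that share. Lists give only what was called, so an absent peak means a signal under each list's own threshold.

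Promoter sequences from RefSeq (GRCm38.p6, the mm10 build) were available for 8 of the 10 genes, in 12 promoters of 300 bases running from 250 bases before to 50 after a start. These 4 are printed because they bracket the H3K27me3 results: Lep was covered in most libraries, Zfp423 near its start in H3WT, and Cebpa and Adipoq in none. Each reads 5′ to 3′ along the gene with CG dinucleotides in capitals.
Lep, chr6:29059971-29060270, plus strand: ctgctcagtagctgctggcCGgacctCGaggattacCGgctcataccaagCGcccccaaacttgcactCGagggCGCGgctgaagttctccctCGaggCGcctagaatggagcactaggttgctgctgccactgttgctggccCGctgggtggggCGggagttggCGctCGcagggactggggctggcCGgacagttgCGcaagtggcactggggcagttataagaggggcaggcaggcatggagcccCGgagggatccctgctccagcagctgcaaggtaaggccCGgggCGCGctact
Zfp423, chr8:87959546-87959845, minus strand: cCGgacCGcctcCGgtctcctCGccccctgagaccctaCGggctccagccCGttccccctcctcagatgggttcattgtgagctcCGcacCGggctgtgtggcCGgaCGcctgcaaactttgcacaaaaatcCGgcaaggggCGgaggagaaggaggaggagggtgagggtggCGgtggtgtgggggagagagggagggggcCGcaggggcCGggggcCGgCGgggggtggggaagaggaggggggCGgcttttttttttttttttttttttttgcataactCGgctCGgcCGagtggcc
Cebpa, chr7:35119043-35119342, plus strand: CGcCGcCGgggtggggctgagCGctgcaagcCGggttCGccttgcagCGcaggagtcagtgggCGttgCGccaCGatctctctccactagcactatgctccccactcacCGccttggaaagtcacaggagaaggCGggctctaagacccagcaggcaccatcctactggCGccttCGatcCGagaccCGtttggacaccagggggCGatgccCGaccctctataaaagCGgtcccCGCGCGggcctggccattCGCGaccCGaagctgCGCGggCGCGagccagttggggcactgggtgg
Adipoq, chr16:23146286-23146585, plus strand: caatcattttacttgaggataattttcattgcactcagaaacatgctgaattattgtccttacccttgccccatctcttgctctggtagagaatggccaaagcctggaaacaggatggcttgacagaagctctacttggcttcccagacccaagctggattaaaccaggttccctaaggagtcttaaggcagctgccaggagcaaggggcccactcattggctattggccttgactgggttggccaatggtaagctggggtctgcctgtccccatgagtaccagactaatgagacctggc
The Lep promoter held 19 CG dinucleotides, the Zfp423 promoter 21 and the Cebpa promoter 29, while the Adipoq promoter held 0; the median over 32851 promoters was 7. The most CG-rich member promoter was that of Cebpb, with 50. The covered Lep start thus held fewer CG dinucleotides than the uncovered Cebpa and Cebpb starts. The relation of CG content to cover was not tested. The letters TTGCGCAA, a palindrome recognised by C/EBP proteins, were searched on both strands and occurred in 0.183% of promoters. Among the 12 member promoters they stood only in that of Lep, starting 55 bases before the start. The letters TATAAA, also searched on both strands, occurred in 13.6% of promoters, and among the members in Cebpa 30 bases before its start, in Cebpb after its start and in 1 of 3 Pparg promoters on the opposite strand.

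The adipogenic master regulators had no called H3K27me3 peak. Pparg (chr6:115360951-115490399, plus strand), which encodes the nuclear receptor PPARγ, had no peak in its window in any of the 9 libraries. Its nearest peak lay 142.0 to 158.8 kb upstream of the start. Cebpa (chr7:35119293-35121928, plus strand) also had none, with the nearest peak 68.8 to 121.3 kb downstream. Cebpb (chr2:167688915-167690418, plus strand) was the farthest of the group, at 306.3 to 542.9 kb. Adipoq (chr16:23146536-23158028, plus strand), which encodes the fat hormone adiponectin, was bare as well, its nearest peak standing 62.6 to 64.1 kb upstream in all 9 libraries. Thus 4 of 10 members had no peak in the gene and its flanks in any library, next to 41.1% of all protein-coding genes, a share near that of the members. Absence held for H3WT and for the 4 mutants alike.

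**Figure D1:**
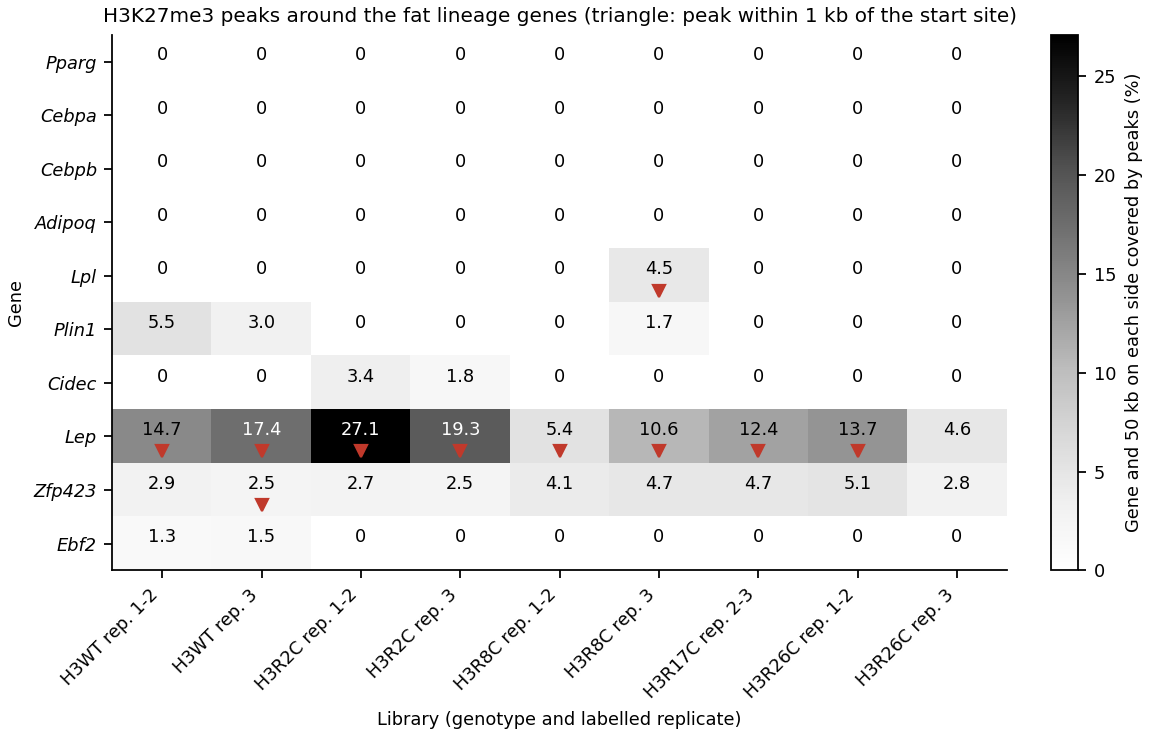
Percent of each gene and its 50 kb flanks covered by H3K27me3 peaks in each of the 9 libraries, with a triangle for a peak within 1 kb of the start site. Pparg, Cebpa, Cebpb and Adipoq are at 0 throughout, and Lep holds triangles in 8 libraries.

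Peaks over the start site were found at 3 members. Lep had one in 8 of 9 libraries, and Zfp423 and Lpl each had one in a single library. The other 7 had none in any library, a state shared by 82.5% of all protein-coding genes. Per genotype, 1 of 10 members (Lep) had a start peak in every H3WT library, next to 8.86% of all genes. The count was 1 in H3R2C (6.97% of all genes), 1 in H3R8C (9.68%) and 1 in the single H3R17C library (8.84%), Lep each time. In H3R26C the count was 0 (8.45% of all genes), because replicate 3 had no peak over the Lep start.

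Lep (chr6:29060220-29073877, plus strand), which encodes the satiety hormone leptin, was the member most covered by the mark. Peaks covered 14.7 and 17.4% of its window in H3WT, 27.1 and 19.3% in H3R2C, 5.41 and 10.6% in H3R8C, 12.4% in H3R17C and 13.7 and 4.56% in H3R26C, the shared library of replicates 1 and 2 being given first here and below. Over the gene body the cover was 35.7 and 36.1% in H3WT, 67.2 and 63.9% in H3R2C, 20.5 and 52.7% in H3R8C, 20.9% in H3R17C, and 54.0 and 0% in H3R26C. H3R2C was highest on both measures and did not overlap with any other genotype. The 2 H3R26C libraries differed more from each other than those of H3WT or H3R2C did, with replicate 3 having the least cover of all.

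The peak over the Lep start was a single block of 12.6 kb in H3WT replicates 1 and 2 and of 18.2 kb in H3R2C replicates 1 and 2, with a signal 8.49 and 11.7 times the lowest peak of its list. In H3R8C replicates 1 and 2 the nearest peak began 0.781 kb inside the gene and stood only 1.29 times above the lowest peak. In H3R26C replicate 3 the nearest peak lay 6.77 kb upstream, at 1.09 times the lowest. A second block, 20.4 to 25.9 kb from the start and beyond the end of the gene, was called in all libraries but those of H3R8C. It fell by 1.47 on the log2 scale in H3R8C against H3WT by limma (adjusted p = 0.0344), a call lost without H3WT replicate 3 (0.0927) or any H3R2C or H3R8C library (0.0735 to 0.142). Another, 42.0 to 46.6 kb downstream of the start, was called only in the 2 H3R2C libraries at a scaled signal, defined below, of 0.325 and 0.207.

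**Figure D2:**
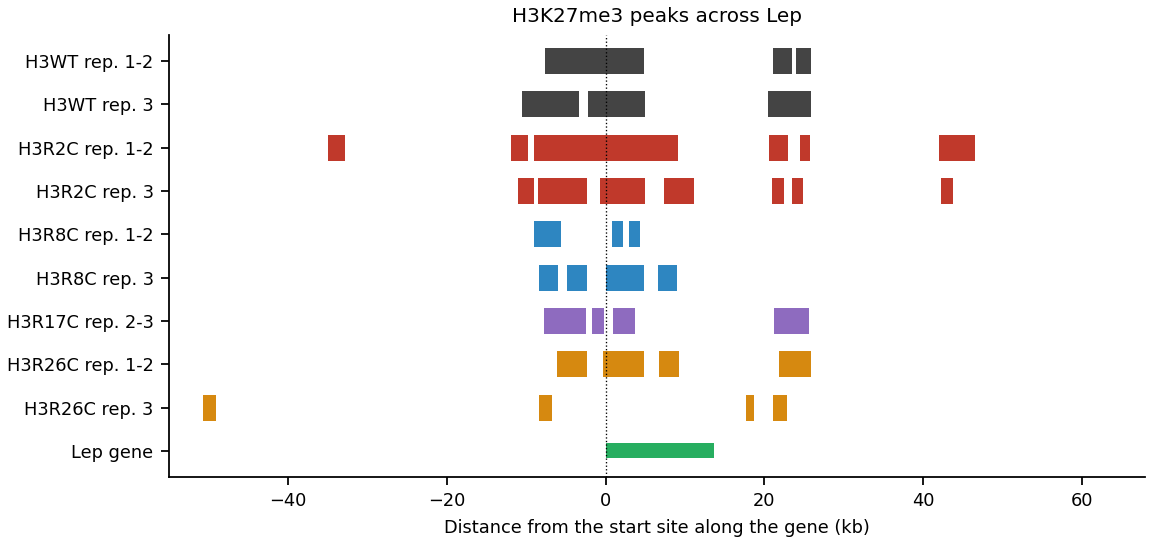
H3K27me3 peaks (bars) across Lep in each of the 9 libraries, by distance from the start site in kb, with the gene in green. H3R2C has the widest cover around the start and a peak beyond 40 kb, and H3R26C replicate 3 has no peak at the start.

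To compare genotypes, the signal of each window was divided by the library's median over 5589 regions called in all 8 libraries of the fit, so that 1 equals 1 typical shared region. The scaled Lep window signal was 1.58 and 2.12 in H3WT, 2.78 and 3.18 in H3R2C, 0.523 and 1.10 in H3R8C, 1.60 in H3R17C and 1.47 and 0.759 in H3R26C. H3R2C lay above all others, and both H3R8C and H3R26C lay below H3WT without overlap. None of these differences from H3WT passed limma with Benjamini-Hochberg adjustment over 11223 windows. The log2 difference was 0.63 ± 0.37 (SE) for H3R2C (adjusted p = 0.226), -0.66 ± 0.37 for H3R26C (adjusted p = 0.224) and -1.03 ± 0.37 for H3R8C (adjusted p = 0.231). H3R2C against H3R26C, a contrast added after the values were seen, gave 1.29 ± 0.37 (adjusted p = 0.0219). Over the alternative settings this value ran from 0.376 to 1.75, and the call was not kept in all of them. The region over the Lep start did not pass in this contrast, at 1.63 ± 0.54 (adjusted p = 0.0533 by limma).

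Zfp423 (chr8:87661810-87959595, minus strand), which encodes a zinc finger factor of preadipocyte commitment, carried the mark in 2 places shared between libraries. Near the start, in intronic sequence, a peak was called at 1.295 to 3.54 kb in H3WT replicates 1 and 2 and at 0.895 to 3.69 kb in replicate 3. H3R26C replicates 1 and 2 had one at 2.70 to 4.74 kb, and no H3R2C, H3R8C or H3R17C library had any. These peaks stood 1.13 to 1.58 times above the lowest of their lists. Beyond the end of the gene, 326.4 to 345.3 kb from the start, every library had a block in a stretch without annotated genes. Its scaled signal was 0.921 and 0.826 in H3WT, 0.768 and 1.23 in H3R2C, 2.30 and 2.55 in H3R8C, 2.02 in H3R17C and 1.69 and 2.25 in H3R26C.

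The region fit over 20900 regions gave the distal block a log2 difference from H3WT of 1.25 ± 0.22 in H3R8C (adjusted p = 0.0247) and 0.97 ± 0.22 in H3R26C (adjusted p = 0.0334) by limma. In H3R2C it was 0.13 ± 0.22 (adjusted p = 0.734). Both calls were lost when any H3WT library was dropped (adjusted p of 0.101 and 0.127 in H3R8C, 0.110 and 0.143 in H3R26C) and when a library of the mutant itself was (0.132 and 0.168 in H3R8C, 0.0531 and 0.154 in H3R26C), and that of H3R26C also without either H3R8C library (0.0813 and 0.0817). The start-proximal region had a scaled signal of 0.216 and 0.234 in H3WT, 0.153 and 0 in H3R26C and 0 elsewhere. It entered the fit only through H3WT, so its difference is given without a test. Over the whole window both parts and the peaks of single libraries were added, and no Zfp423 difference from H3WT passed. The window values were 0.07 ± 0.24 in H3R2C (adjusted p = 0.867), 0.76 ± 0.24 in H3R26C (adjusted p = 0.0510) and 0.99 ± 0.24 in H3R8C (adjusted p = 0.0945). With no flank or with 10 kb on each side the distal block left the window, and the H3R26C value turned to -0.58 and the H3R8C value to -0.93.

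**Figure D3:**
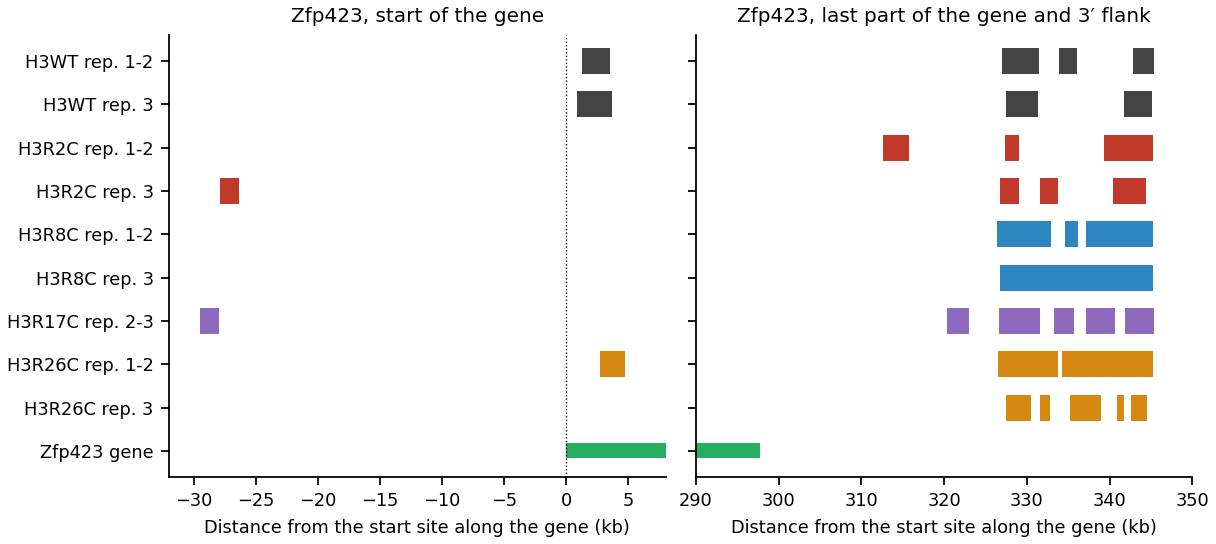
H3K27me3 peaks (bars) at the start of Zfp423 (left) and beyond its end (right) in each of the 9 libraries, by distance from the start site in kb, with the gene in green. Peaks just inside the start appear in both H3WT libraries and in H3R26C replicates 1 and 2, and the distal block is present in every library.

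Ebf2 (chr14:67233292-67430918, plus strand), which encodes an EBF factor of brown and beige preadipocytes, had peaks only in H3WT. They lay inside the gene, at 173.9 to 178.6 kb from the start in replicates 1 and 2 and at 89.6 to 91.9 and 176.3 to 178.6 kb in replicate 3. The scaled window signal was 0.415 and 0.382 in H3WT and 0 in the other 7 libraries. The window entered the fit only through H3WT, the genotype in which it was high, so the test restates this choice. By limma it fell by 1.37 ± 0.12 on the log2 scale in H3R2C (adjusted p = 0.000545), in H3R26C (adjusted p = 0.00119) and in H3R8C (adjusted p = 0.00670).

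Plin1 (chr7:79720218-79732903, minus strand), which encodes the lipid droplet coat protein perilipin 1, had an upstream peak in both H3WT libraries, at 5.55 to 9.90 kb and at 5.30 to 8.65 kb, over Pex11a. Its scaled window signal was 0.483 and 0.275 in H3WT, 0 and 0.141 in H3R8C, and 0 in H3R2C, H3R17C and H3R26C. This window, too, entered the fit only through H3WT. It fell by 1.31 ± 0.25 on the log2 scale in H3R2C (adjusted p = 0.00838) and in H3R26C (adjusted p = 0.0109), and gave -0.99 ± 0.25 in H3R8C (adjusted p = 0.112). Leaving out either H3R2C library raised the adjusted p of the H3R2C comparison to 0.0708 and 0.0722. For H3R26C it rose to 0.0503 when the shared H3WT library was dropped, and to 0.0511 and 0.0666 when either H3R26C library was.

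Cidec (chr6:113424634-113435760, minus strand), which encodes a protein that enlarges lipid droplets, had a peak only in H3R2C, 22.4 to 26.4 kb upstream, over the start of Il17re. The scaled window signal was 0.195 and 0.196 in H3R2C and 0 elsewhere. Having entered the fit only through H3R2C, the window rose by 0.83 ± 0.10 on the log2 scale in H3R2C (adjusted p = 0.00168). Lpl (chr8:68880491-68907448, plus strand), which encodes lipoprotein lipase, had peaks in H3R8C replicate 3 alone, 1 over the start and 1 at 24.0 to 26.7 kb upstream, with a scaled window signal of 0.336 against 0 in the other H3R8C library, and its window was not tested.

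**Figure D4:**
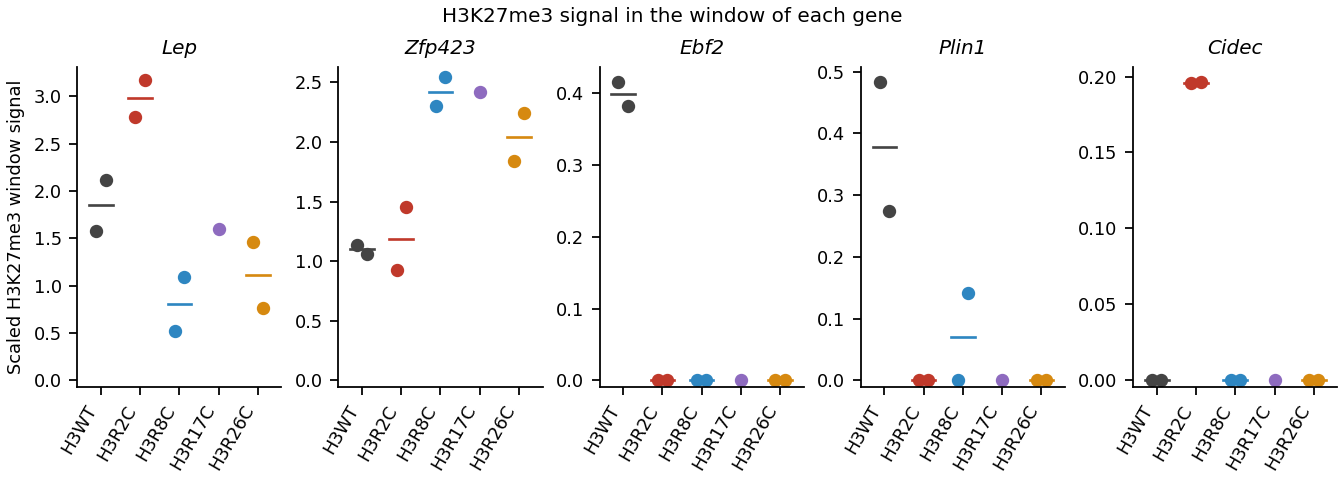
Scaled H3K27me3 window signal of the 5 members tested, per library (points) and as the mean of 2 libraries (lines), by genotype; H3R17C has 1 library. Lep is highest in H3R2C, Ebf2 is above 0 only in H3WT, and Cidec only in H3R2C.

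The windows of 5 of 10 members were tested, since a window needed a peak in both libraries of at least 1 genotype. Ebf2, Plin1 and Cidec passed this filter only through the genotype in which they were high, as did 5 of the 9 member regions, so the counts that follow are no support for a difference. Against H3WT, 3 of the 5 passed in H3R2C (2 lower, 1 higher), next to 35.5% of all windows. The count was 2 in H3R26C, both lower (29.2% of windows), and 1 in H3R8C, lower (2.75%). For H3R2C and H3R26C pooled against H3WT and H3R8C it was 3 (38.3%), with an error that covers the spread within genotypes only, and for H3R2C against H3R26C it was 3 (54.3%). Among the 9 regions of the members, 5 passed in H3R2C (30.2% of all regions), 3 in H3R26C (15.7%), 4 in H3R8C (5.96%) and 4 in the pooled comparison (36.3%). The called windows of Ebf2, Plin1 and Cidec turned on 1 or 2 peaks a library, 1.04 to 2.15 times above the lowest of their lists, set against libraries with none. When windows without a peak in every library were left out, these 3 genes were not tested.

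The gene whose H3K27me3 followed Lep most closely was Ret, a receptor tyrosine kinase gene, with a Pearson correlation of 0.971 over 9 libraries among 2414 genes. Its scaled window signal was 1.58 and 1.65 in H3WT, 2.44 and 2.93 in H3R2C, 0.237 and 0.637 in H3R8C, 1.02 in H3R17C and 0.747 and 0.239 in H3R26C. Both genes lie on chromosome 6, and the points share the same libraries and scaling. No other member had a start peak in enough libraries for this search.

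Other genes of the fat programme moved in both directions. The genes named here passed the same limma window fit against H3WT, values are log2 differences, and a window can hold peaks of neighbouring genes. Of 18 adipogenic transcription factors, 5 of them members, 9 had no peak in their windows in any library (41.1% of all genes) and 8 were tested. In H3R2C 6 of 8 passed, 2 lower and 4 higher, next to 35.5% of all windows. Of these 6, 3 entered the fit only through the genotype in which they were high. They were Tle3, which acts with PPARγ, at 3.15, Rxra, the PPARγ partner, at 1.76, and Ebf2. In H3R26C 2 fell and 1 rose (29.2% of all windows), with Stat5b at -1.81 and Zfp467 at 1.02. The other that fell was Ebf2, which entered the fit only through H3WT. The median was 0.50 in H3R2C, against 0.16 over all windows. It includes Tle3, Rxra and Ebf2, so it is no support for a shift of the list.

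Of 14 genes listed as antagonists of adipogenesis, 8 were tested. In H3R2C 4 of 8 passed, next to 35.5% of all windows. Zfp521 at 1.79 and Gata2 at 1.39 had peaks in H3R2C alone and entered the fit only through it. The other 2 fell, among them Sfrp1 at -1.32. Sfrp1 encodes a secreted inhibitor of Wnt signals, so its fall is not read as one at an antagonist. In H3R26C 2 of 8 passed (29.2% of all windows), Wnt10b lower at -1.30 and Wnt6 higher at 0.74. The list median in H3R2C was 0.02, against 0.16 over all windows, with Zfp521 and Gata2 included.

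Of 29 lipid storage and synthesis genes, 3 of them members, 14 had no window peak in any library (41.1% of all genes) and 13 were tested. In H3R2C 6 of 13 passed, 2 lower and 4 higher, next to 35.5% of all windows, and 3 of the 6 (Cidec, Mgll and Plin1) entered the fit only through the genotype in which they were high. Named among the others were the fatty acid carrier Fabp4 at 1.89, Gpam at 1.40 and Pck1 at -1.51. In H3R26C 2 fell and 1 rose (29.2% of all windows), including Lpin1 at -2.09 and Fabp4 at 1.09. The other that fell was Plin1, which entered the fit only through H3WT. The list median was 0.28 in H3R2C, against 0.16 over all windows. It includes Cidec, Mgll and Plin1, so it is no support for a shift of the list.

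Of 12 adipokine genes, 2 of them members, 7 were tested. In H3R2C 3 of 7 passed (35.5% of all windows). Apln was lower at -3.76, Retnla lower at -1.91 and Retn higher at 0.93. The fall of Apln was not particular to fat genes. The housekeeping gene Hprt also fell in H3R2C, at -2.72, and neither gene passed in H3R26C or H3R8C. In H3R26C 2 of 7 passed (29.2%), Rbp4 lower at -3.15 and Retn higher at 0.69. The median was -0.34 in H3R2C, against 0.16 over all windows.

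Of 10 thermogenic genes, 6 were tested. In H3R2C 3 of 6 passed (35.5% of all windows). Prdm16, a determinant of brown fat, was lower at -3.01, Elovl3 lower at -1.06 and Adrb3 higher at 0.52. The fall of Prdm16 was not particular to H3R2C. It also passed in H3R8C at -3.01, where 2.75% of all windows passed, and the H3R17C library had no peak in its window. In H3R26C 2 of 6 passed (29.2%), Cox8b lower at -2.41 and Elovl3 at -2.15. The median was -0.23 in H3R2C, against 0.16 over all windows, and -0.69 in H3R26C, against -0.0032 over all windows.

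Outside fat genes, 4 of 8 mesenchymal progenitor markers and 3 of 6 housekeeping genes had windows with enough peaks to be tested. Twist1 was lower in H3R2C at -0.75, Col1a2, a collagen gene, lower in H3R26C at -5.01 and Hprt lower in H3R2C at -2.72, so calls in such wide windows also occurred at genes without the mark over their start.

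The HA antibody, which marks where the tagged histone is incorporated, showed another distribution. Peaks over the start site were found in at least 1 of 10 HA libraries at 6 of 10 members, next to 42.8% of all genes. Adipoq had one in 4 libraries, Cidec in 3, Cebpa in 2 and Pparg, Zfp423 and Ebf2 in 1 each. Lep, with its H3K27me3 over the start, had none, and neither had Cebpb, Lpl or Plin1. The Cebpa start peaks were those of both H3R2C libraries.

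Cebpb, without H3K27me3, was the member most covered by HA peaks in 7 of 10 libraries, at 41.4 and 43.7% of its window in H3WT, 6.11 and 5.86% in H3R2C, 24.5 and 18.3% in H3R8C, 6.29 and 9.54% in H3R17C and 29.9 and 29.0% in H3R26C. Zfp423 had the lowest median cover over the 10 libraries, 0.427%, with a range from 0 to 3.72%. Over all genes, the median cover of a window ran from 0 to 2.12% among the HA libraries. The windows differed in length, at 397.8 kb for Zfp423 and 101.5 kb for Cebpb. Median peak width ran from 0.8 kb to 10.7 kb among the HA libraries, the widest being that of H3WT replicates 1 and 2, so cover by HA peaks moved with the list. The part of peak width in these differences was not tested.

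**Figure D5:**
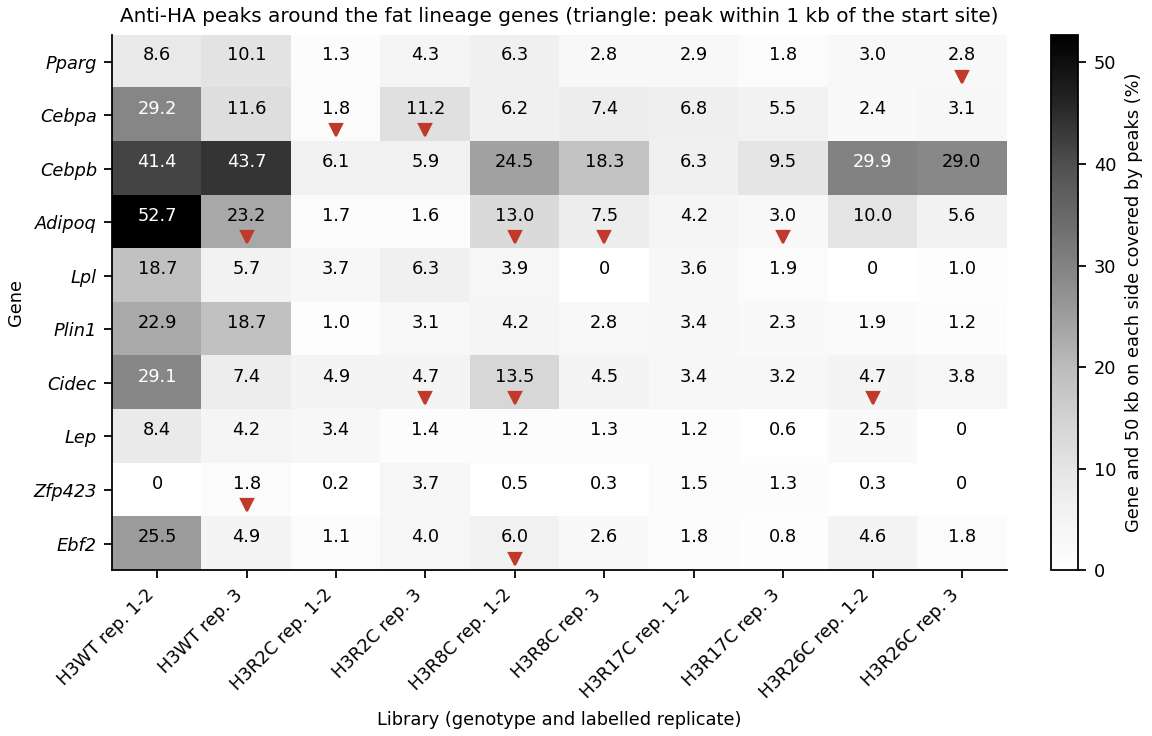
Percent of each gene and its 50 kb flanks covered by anti-HA peaks in each of the 10 libraries, with a triangle for a peak within 1 kb of the start site. Cebpb has the highest cover in most libraries, and Cebpb, Lpl, Plin1 and Lep have no triangle.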

How the data were processed

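C3H 10T1/2 cells were profiled by CUT&RUN. Per the study's methods and the labels, the authors used Rsubread for alignment (mm10), and SEACR 1.3, named in the submitters' processing notes, for peaks. The deposited lists hold summed and maximum signal (coverage) per peak on a 50-bp grid, unscaled and without read totals. The study states total reads per library, which were not used here, so no interval rests on depth. Lists of 29 samples were used, 31 samples were not analysed here, and identical lists were counted once. Genes came from GENCODE M21 (mm10). Signal in a window was the summed signal times the share of each peak inside it. Windows and regions were fitted in limma 3.58.1 (R 4.3.3) on log2(scaled signal + 0.25), trend on, all 4 genotypes with 2 libraries sharing 1 spread, Benjamini-Hochberg threshold 0.05. On a log2(value + pseudocount) scale, changes of low windows are understated. The study describes the CUT&RUN replicates as independent, but identical lists left at most 2 libraries a genotype, and p-values measure only the spread between these libraries. Named genes were all 10 members, plus at most 3 per gene list and comparison, those past the threshold with the largest change, and the single most similar gene by correlation. The members, lists and tests were chosen with earlier results of these data known. Alternatives covered pseudocount, scaling, filters, peak thresholds, window size, a replicate block and leaving out each library.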

Additional observations from a re-analysis of the deposited data

Results flagged for a closer look

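The windows of 3 members differed between H3R2C and H3R26C by limma in the contrast of the 2 mutants, which was chosen after seeing the data, next to 54.3% of all windows. Lep was higher in H3R2C by 1.29 on the log2 scale (adjusted p = 0.0219), with both H3R2C libraries above both H3R26C libraries. Without H3R2C replicates 1 and 2, H3R2C replicate 3 or H3R26C replicate 3 the adjusted p was 0.104, 0.142 and 0.127. Cidec was higher in H3R2C by 0.83 (adjusted p = 0.00087), with no peak in H3R26C, and its window had entered the fit only through H3R2C. Zfp423 gave -0.69 (adjusted p = 0.0426), and the adjusted p was above the threshold in 7 of the 8 fits that left out 1 library, all but the fit without H3R2C replicate 3.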

How the results depend on the processing

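Requiring a peak in every library left 2 member windows and 2 member regions. The windows called were then 0 in H3R2C, 1 in H3R26C (Zfp423), 0 in H3R8C and 0 in the pooled comparison, and the regions called were 0, 1, 1 and 0. Keeping the upper 50% of peaks gave the same counts, and 1 window between H3R2C and H3R26C. With no filter on low values, 1 window was called in H3R26C, 1 between H3R2C and H3R26C, and 1 region in H3R8C. Maximum signal gave 1 window in H3R26C and 1 between the mutants. With signal as deposited, 1 window was called between the mutants and 2 regions in H3R8C, and the median of all windows in H3R26C moved from -0.0032 to -0.36. That scaling also moved the share of higher among called windows from 39.6 to 27.7% in H3R26C, from 41.7 to 56.0% in H3R8C and from 64.5 to 75.1% between the mutants. With equal numbers of top peaks 0 windows were called between the mutants. With no flank the counts were 1 in H3R26C, 1 in the pooled comparison and 0 between the mutants, and with 10 kb flanks 1 between the mutants. Zfp423 turned direction in H3R2C with signal as deposited (-0.084), equal numbers of top peaks (-0.15), and 10 kb or no flank (-0.93), in H3R26C with 10 kb or no flank (-0.58) and in H3R8C with either (-0.93). Leaving out 1 library at a time gave Zfp423 values of -0.20 to 0.34 in H3R2C and -0.212 to 0.057 in the pooled comparison. It gave 1 to 3 windows in H3R26C (1 without the shared H3WT library or either H3R26C library), 1 to 2 between the mutants (1 without H3R2C replicates 1 and 2 or H3R26C replicate 3) and 1 to 5 regions in H3R8C (1 without either H3R8C library). Start peaks in every library numbered 2 in H3WT within 5 kb (Zfp423 added), 0 in H3R8C and 0 in H3R17C at the base of the start itself, and 0 in H3R8C among the upper 50% of peaks. Calls over all 11223 windows moved as well. In H3R2C they were 1515 lower and 2470 higher in the main fit, and 630 and 943 with signal as deposited. In H3R26C they were 1980 and 1299, and 611 and 234 with signal as deposited. The member counts above are therefore no result about the members. The cause of these changes was not tested.

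Deviations of same-numbered libraries correlated from -0.01 to 0.27 across pairs of genotypes, so the numbers were not taken to pair them. With a replicate block, 3 windows passed in H3R2C, 3 in H3R26C (Zfp423 added, adjusted p = 0.0452 by limma) and 1 in H3R8C, and 5, 3 and 3 regions, where the Lep block beyond the gene end was no longer called in H3R8C (adjusted p = 0.0684). Among all 11223 windows, the fit with the block called 1584 lower and 2513 higher in H3R2C. It called 1987 and 1363 in H3R26C, and 136 and 85 in H3R8C.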
